A study of Mus musculus with 2 samples.

Results

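The arrays held 10 genes that mark mucus-secreting goblet cells. Of these, 9 encode proteins that the cells secrete or need for secretion, Muc2, Tff3, Fcgbp, Clca1, Zg16, Agr2, Spink4, Retnlb and Klk1, and the last, Spdef, is a transcription factor of the lineage. They were taken by name, as every probe set whose platform annotation gave exactly one of these symbols, which found all 10 of them among 18193 named genes and gave 17 of 34945 named probe sets. A probe set is a group of short oligonucleotides that together report 1 transcript. Each gene was represented by its brightest probe set over both arrays, and all probe sets are described as well. Total RNA from a colon biopsy and from a small intestine biopsy of wild-type adult mice (Mus musculus) had been hybridised, with 1 Affymetrix array per tissue and no treatment of either. The labels give neither the strain nor the number of animals behind each RNA, nor the position of the biopsies along the gut. With 1 array per tissue no difference has a replicate check, no test was possible, and 3-fold is a fixed size and not a significance level.

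Goblet cells are epithelial cells, scattered among absorptive cells along the whole intestine, that fill granules with mucin and release them onto the surface. The mucin Muc2 forms disulfide-linked polymers in the endoplasmic reticulum, is heavily O-glycosylated in the Golgi, and swells into the mucus gel after release. In the colon this gel is layered and keeps bacteria off the epithelium, whereas in the small intestine it is loose and unattached. Cells take the secretory fate under the transcription factor Atoh1, and Spdef acts downstream of it in the maturation of goblet cells.

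By their brightest probe set the goblet cell genes fell into 2 sets on these arrays. Retnlb, Klk1, Spdef, Muc2, Agr2 and Clca1 were 3-fold or more higher in colon than in small intestine, from 3.89-fold for Clca1 to at least 359-fold for Retnlb. Zg16, Fcgbp, Spink4 and Tff3 had nearly the same level in both tissues, the largest of their differences being 1.41-fold. No goblet cell gene lay between these sets, since the log2 difference of small intestine minus colon ran from -0.23 to 0.50 in the latter and was -1.96 or lower in the former, and none was 3-fold higher in small intestine. The gap rests on the choice of probe set. With the median over probe sets Agr2 lay in it at -1.54, and with the dimmest probe set above background Agr2 lay in it at -0.88 and Klk1 at -0.49. Levels are log2 expression values, and for differences any value below the background level of 5 was raised to 5. All 10 genes exceeded that level on the colon array, and all except Retnlb did on the small intestine array.

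**Figure D1:**
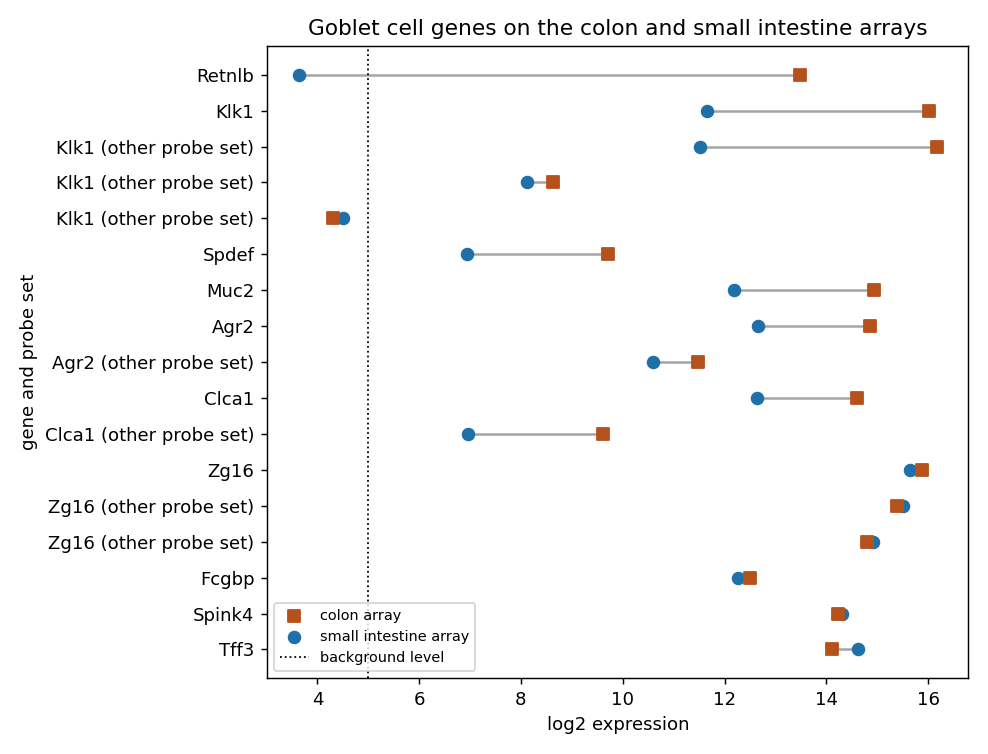
Log2 expression (horizontal axis) of every probe set of the 10 goblet cell genes (vertical axis) on the colon array (squares) and the small intestine array (circles), with the brightest probe set of each gene first and the background level of 5 dotted. Retnlb spans from 13.49 to 3.64, while the paired points of Zg16, Fcgbp and Spink4 almost coincide. Positions compare the tissues within a row, not rows with each other.

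As a background to the count of 6 in 10, 5.49% of the 11015 genes that exceeded background in either tissue were 3-fold or more higher in colon and 5.71% were so in small intestine. The median difference of the goblet cell genes was -2.08, against -0.06 over those 11015 genes. At 2-fold the count stayed 6 of 10, where 13.4% of genes passed, and at 5-fold it was 4 of 10, namely Retnlb, Klk1, Spdef and Muc2, where 2.36% passed. Ordered by difference from the colon end, Retnlb stood in place 6 of the 11015 genes, Klk1 in place 54, Spdef in 166, Muc2 in 169, Agr2 in 307 and Clca1 in 390. The genes were named for study with results of these arrays already known, so their share describes them and does not test them. In whole tissue, more goblet cells and more RNA per goblet cell cannot be told apart.

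**Figure D2:**
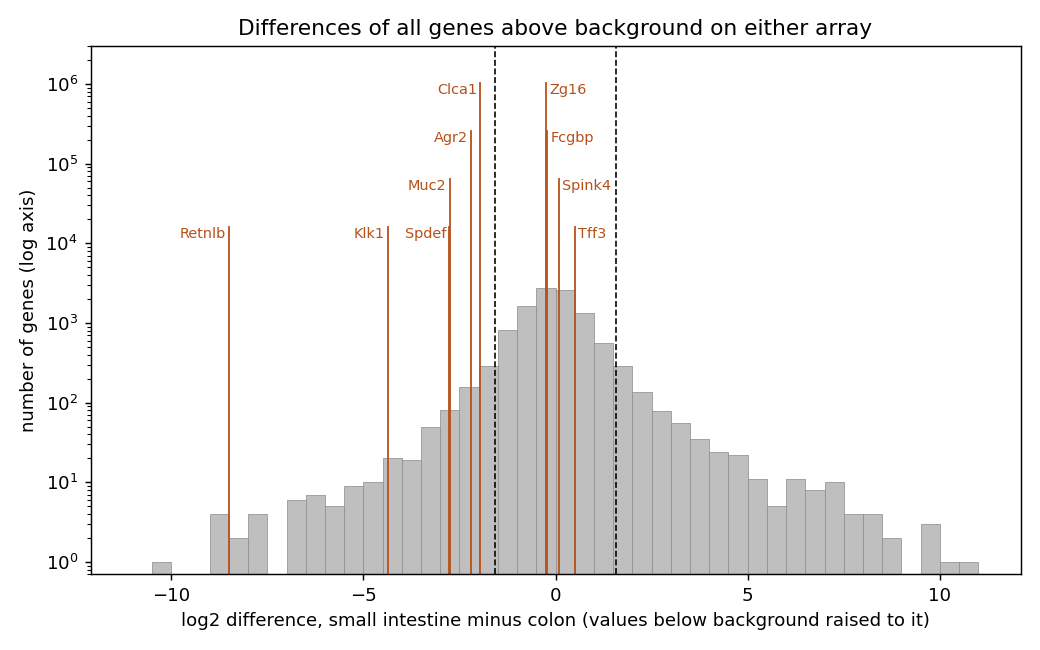
Number of genes (vertical log axis) by log2 difference of small intestine minus colon (horizontal axis), over the 11015 genes that exceeded background in either tissue, with dashed lines at 3-fold and vertical lines at the goblet cell genes. Of these genes 6 lie left of the lower dashed line, from -1.96 to -8.49, and the other 4 lie near 0.

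The structural proteins of the gel did not move together. Muc2, the gel-forming mucin itself, had 14.94 in colon and 12.19 in small intestine, a 6.76-fold difference seen with its single probe set. Fcgbp, a large protein of the gel that is bound to Muc2, had 12.49 and 12.27, which is 1.16-fold. Clca1, a secreted metalloprotease that cleaves Muc2, had 14.59 in colon and 12.63 in small intestine, or 3.89-fold. Thus the mucin and its protease were higher in colon, and the associated protein was level. The other probe set of Clca1 gave 9.60 and 6.97, a 6.22-fold difference in the same direction. Zg16, a lectin that binds the cell wall of Gram-positive bacteria, had 15.88 in colon and 15.64 in small intestine. Its 3 probe sets had differences of -0.23, 0.11 and 0.13, so that none separated the tissues.

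Agr2 and Spdef serve the making of these products. Agr2, a protein disulfide isomerase of the endoplasmic reticulum needed for Muc2 production, had 14.86 in colon and 12.66 in small intestine, or 4.60-fold. A second probe set of Agr2, of a kind marked by the manufacturer as sharing probes with other transcripts, had 11.47 and 10.60, a difference in the same direction but of 1.84-fold. The size for Agr2 therefore depended on the probe set. Spdef, an ETS family factor, had 9.70 in colon and 6.93 in small intestine. Its 6.83-fold difference, -2.77 on the log2 scale, lay within 0.25 of that of Muc2, at -2.76, as did the differences of 55 of the 9804 other genes above background on both arrays.

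The remaining products ranged from equal levels to the largest difference of all 10. Retnlb, the resistin-like molecule beta, an antibacterial protein induced by microbes, had 13.49 in colon and lay below background in small intestine at 3.64, so its fold of 359 is a lower bound. Tff3, the trefoil peptide that aids repair of the epithelium, had 14.12 in colon and 14.61 in small intestine, the difference furthest toward the small intestine among the 10 genes. Spink4, which resembles Kazal-type inhibitors of serine proteases, had 14.23 and 14.31. These 3 products of 1 cell type thus covered the whole range of differences among the goblet cell genes.

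Klk1, tissue kallikrein, a serine protease that frees kinins from kininogen, had 16.02 in colon and 11.66 in small intestine, or 20.6-fold. A second probe set of nearly equal brightness, which carries no mark of shared probes, had 16.17 and 11.51, or 25.2-fold. Another had 8.62 and 8.13, only 1.41-fold, and the last stayed below background on both arrays at 4.31 and 4.50. Only the brighter pair of the Klk1 probe sets thus passed 3-fold. On the colon array the highest value of any probe set was 16.22, so the Klk1 and Zg16 values lay close to the top of the scale, and whether the top of the scale narrowed their differences was not tested.

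Counted by probe set, 8 of the 17 were 3-fold or more higher in colon, 0 were in small intestine, and 16 exceeded background on either array. Among all named probe sets above background, 5.37% were 3-fold higher in colon. Over the 4140 genes with several such probe sets, the differences of probe sets of 1 gene had a pooled SD of 0.60 on the log2 scale, or 1.51-fold. This is the only spread the series holds, and it reflects probes and not animals. By brightest probe set, the differences of Zg16, Fcgbp, Spink4 and Tff3 were smaller than this SD. Those of the other 6 genes were over 3 times as large. A dimmer probe set of Agr2 had -0.88 and 1 of Klk1 had -0.49. Of the 4140 genes, 362 had any probe set above background 3-fold or more higher in colon. In 80 of these 362, or 22.1%, all probe sets above background were.

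The start of transcription is shown for 3 of these genes, namely Muc2 and Spdef, which were higher in colon, and Fcgbp, which was level. RefSeq promoter windows of build GRCm38.p6, from 250 bases before to 50 bases after the start, were at hand for 5 of the 10 genes, those 3, Agr2 and Klk1. Both strands were searched for CAGCTG, an E-box of the form bound by Atoh1, CCGGAT, an ETS core, and TGTTTAC and TGTTTGC, forkhead motifs. Also searched were TATAAA, a form of the TATA box, and TGACGTGG, an element of the unfolded protein response. Variants of these letters were not searched, so other forms of the TATA box are unmarked. The motifs do not overlap in these windows, and capitals mark every match.
Muc2, chr7:141690090-141690389, plus strand: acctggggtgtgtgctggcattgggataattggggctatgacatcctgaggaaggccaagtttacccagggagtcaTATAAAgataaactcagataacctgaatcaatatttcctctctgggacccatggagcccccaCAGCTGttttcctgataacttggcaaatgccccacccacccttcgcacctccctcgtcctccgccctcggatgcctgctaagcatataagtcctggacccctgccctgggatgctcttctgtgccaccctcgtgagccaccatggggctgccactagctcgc
Fcgbp, chr7:28070986-28071285, plus strand: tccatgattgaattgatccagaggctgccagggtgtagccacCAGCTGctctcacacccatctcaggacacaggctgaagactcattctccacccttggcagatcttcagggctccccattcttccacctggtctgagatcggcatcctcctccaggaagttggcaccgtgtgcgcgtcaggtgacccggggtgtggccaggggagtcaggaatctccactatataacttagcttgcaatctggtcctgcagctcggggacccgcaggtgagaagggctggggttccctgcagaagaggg
Spdef, chr17:27728902-27729201, minus strand: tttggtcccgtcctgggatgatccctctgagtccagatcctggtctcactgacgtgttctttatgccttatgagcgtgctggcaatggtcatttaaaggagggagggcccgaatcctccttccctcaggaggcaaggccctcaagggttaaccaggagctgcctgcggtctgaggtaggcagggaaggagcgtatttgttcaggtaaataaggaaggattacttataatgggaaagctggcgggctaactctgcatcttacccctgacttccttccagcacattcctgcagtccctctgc
The E-box stood in the windows of Muc2, 112 bases before the start, and of Fcgbp, 208 bases before it. It was thus found in a gene that was higher in colon and in a gene that was level. A TATAAA lay 174 bases before the Muc2 start, and whether it acts as a TATA box was not tested. The windows of Spdef, Agr2 and Klk1 held none of the motifs searched. Of 32851 mouse promoter windows of this length, 16.3% held the E-box, 6.04% the ETS core, 8.48% a forkhead motif, 13.6% TATAAA and 0.676% the unfolded protein response element. A match here is a description of the letters and not of a bound factor.

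Genes of cell fate other than Spdef were in part higher in colon. The 17 listed hold the Notch pathway genes Hes1, Notch1, Rbpj, Dll1 and Dll4, and Cdx1 and Cdx2, which are also listed as pan-epithelial. They are thus not all transcription factors of the secretory lineage. Of the 17, 6 were 3-fold or more higher in colon, 1 was in small intestine and 10 were under 3-fold, with a median difference of -0.89. Atoh1, which sets the secretory fate, had 10.42 in colon and 7.94 in small intestine, or 5.57-fold. Foxa1, a forkhead factor of secretory cells, had 11.04 and 7.73 (9.87-fold), and the related Foxa2 had 7.68 and 5.59 (4.26-fold). The membrane-bound factors Creb3l4 (6.19-fold) and Creb3l1 (5.06-fold), which act in secretory cells, and the ETS factor Ehf (6.81-fold) completed the 6. Of the others, Klf4, a factor of goblet cell differentiation, had 13.59 and 13.03, and Gfi1, which acts below Atoh1, had 7.34 and 6.40. The Notch ligand Dll1 was 3.93-fold higher in small intestine.

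Among 28 genes of folding, storage and release, 9 were 3-fold or more higher in colon and 0 in small intestine, with a median of -1.26. Ern2, the stress sensor of the endoplasmic reticulum that is restricted to mucus-secreting epithelia, had 9.27 in colon and 6.53 in small intestine, or 6.70-fold. Its widely expressed relative Ern1 had 8.46 and 8.84, and their target Xbp1 had 12.65 and 13.10, so these general factors were near level. The largest differences were those of the transglutaminase Tgm3 (at least 15.9-fold), the calcium pump Atp2c2 (9.37-fold) and the granule protein Sytl4 (at least 6.84-fold). Hepacam2 was 5.84-fold and the disulfide isomerase Pdia5 4.11-fold higher. The chaperone Hspa5 had 13.44 in colon and 13.96 in small intestine.

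Of 17 measured glycosyltransferases and related enzymes that build mucin glycans, 10 were 3-fold or more higher in colon and 1 in small intestine, with a median of -1.82. B3gnt6, which makes the core 3 glycan, was at least 8.06-fold and B3gnt7, which extends glycan chains, at least 6.15-fold higher in colon. Galnt12, which starts O-glycans, had 11.81 in colon and 9.23 in small intestine. St3gal4, a sialyltransferase, was 9.96-fold higher in small intestine by its single probe set, which is marked as sharing probes among transcripts, so that without such probe sets 0 of these enzymes were 3-fold higher there. With the median over probe sets of each gene the count higher in colon was 6 in place of 10. Probe sets below background on both arrays entered this median with a difference of 0. With the dimmest probe set above background the count was 8.

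**Figure D3:**
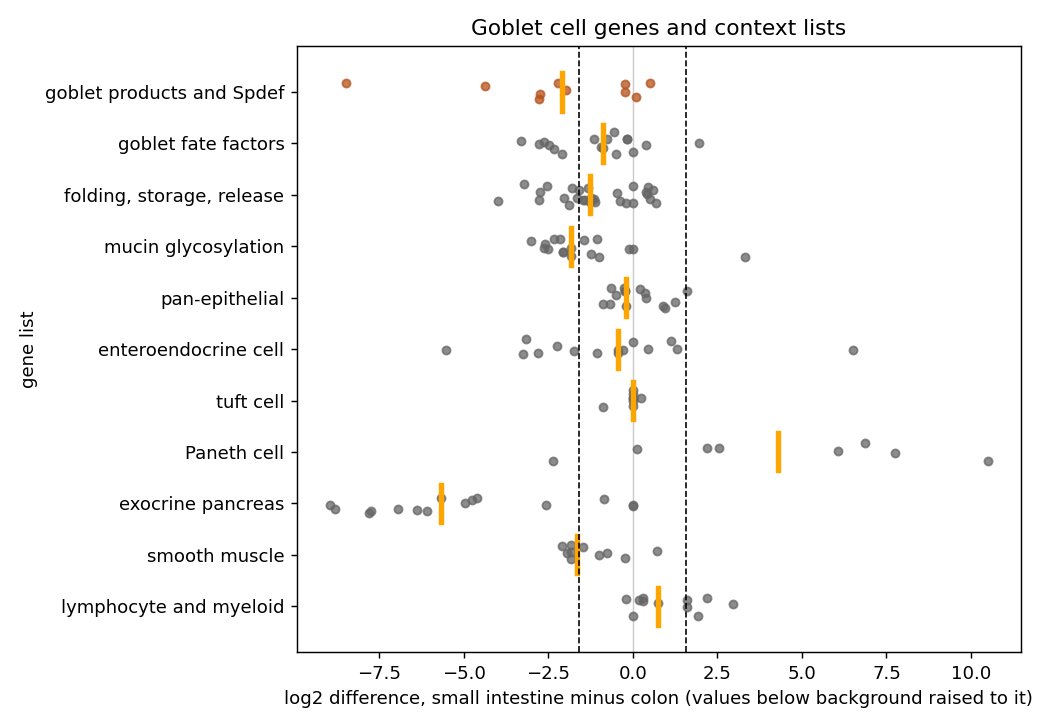
Log2 difference of small intestine minus colon (horizontal axis) of each gene of 11 lists (vertical axis), with list medians as orange bars and dashed lines at 3-fold. The goblet cell genes have a median of -2.08, while pan-epithelial genes lie around a median of -0.21, exocrine pancreas genes around -5.66 and Paneth cell genes around 4.31.

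Of 31 measured family relatives of the goblet cell genes, 14 exceeded background on either array, of which 1 was 3-fold or more higher in colon and 3 were in small intestine. The 1 was Ehf, the ETS relative of Spdef, whose difference was -2.77, as was that of Spdef, while Elf3 of the same family had 9.06 in colon and 8.29 in small intestine. Clca1 lies in a cluster with 6 relatives on its chromosome, of which Clca4a had 12.40 in colon and 14.45 in small intestine (4.15-fold higher in the latter). Clca4b had 6.50 and 13.68, a 144-fold difference in small intestine, the reverse of Clca1, and Clca3a2 was 3.40-fold higher there as well. The Clca relatives resemble each other in sequence, so how well their probe sets tell them apart is uncertain. Retnla, next to Retnlb in the order of coding genes, had 7.48 in colon and 6.34 in small intestine, or 2.21-fold. Tff1 had 6.63 and 7.10, a difference of 0.47 beside 0.50 for Tff3, and Tff2, the direct neighbour of Tff3, had 5.27 and 4.36. The gel-forming mucins Muc5ac and Muc5b of the Muc2 cluster stayed below background in both tissues, with 3.16 as their highest value. Of 12 measured relatives of Klk1 on its chromosome, 10 stayed at background on both arrays and none exceeded 5.08 in colon, although 6 more of the 18 relatives were not measured by a named probe set. Spink1 had 13.91 in colon and 15.42 in small intestine, which is 2.84-fold, where Spink4 was level.

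**Figure D4:**
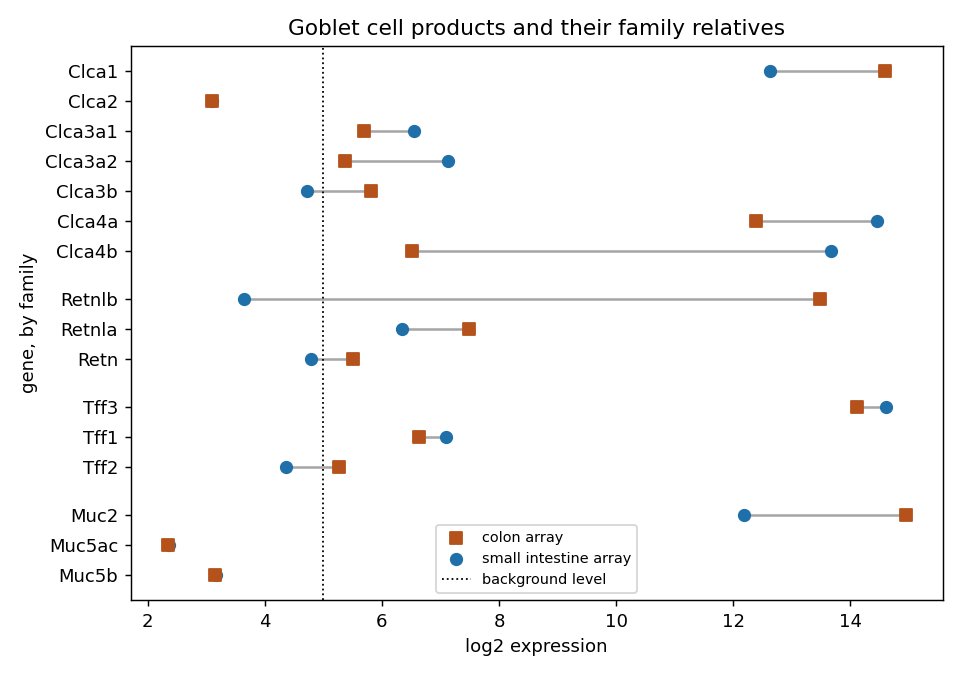
Log2 expression (horizontal axis) of goblet cell products and of measured relatives, grouped by family (vertical axis), on the colon array (squares) and the small intestine array (circles), with the background level of 5 dotted. Clca1 is higher in colon, while Clca4a and Clca4b are higher in small intestine, at 14.45 and 13.68. Positions compare the tissues within a row only.

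Markers of other cells that the biopsies could hold moved with part of these results. None of 15 pan-epithelial genes was 3-fold higher in colon and 1 was in small intestine, namely Vil1, the villin of microvilli, at 3.02-fold, which fell under 3-fold with the arrays centred on spike-ins. Their summed level was 17.22 in colon and 17.43 in small intestine on the log2 scale. After centring the arrays on these epithelial genes, a shift of -0.21, the same count of 6 goblet cell genes passed 3-fold in colon. Clca1, the nearest of the 6 to 3-fold, moved only from -1.96 to -1.75. Tff3 moved from 0.50 to 0.71, past the probe set SD of 0.60. A single shift of an array does not measure its share of goblet cells, which was not tested. Of 15 measured exocrine pancreas genes, 12 were 3-fold or more higher in colon, with levels from 2.54 to 13.95 there and from 2.30 to 12.68 in small intestine. Their summed level was 16.22 in colon and 12.78 in small intestine, where the median of the 15 was 3.65 and 12 of them were at background. Of the others, colipase (Clps) had 12.68 in small intestine, against 13.53 in colon, while Cela1 had 8.07 and Prss2 5.68 in small intestine. The pancreatic transcription factors Ptf1a and Rbpjl were below background on both arrays. Klk1 and Zg16 are genes that pancreatic acinar cells also use, and the part of such RNA in their values was not tested. Without both, 5 of 8 goblet cell genes were 3-fold higher in colon, a count chosen after the values were seen. Smooth muscle genes were 3-fold higher in colon in 5 of 10 cases, from a summed level of 13.65 in small intestine to 14.78 in colon, and the part of this in the goblet cell results was not tested.

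**Figure D5:**
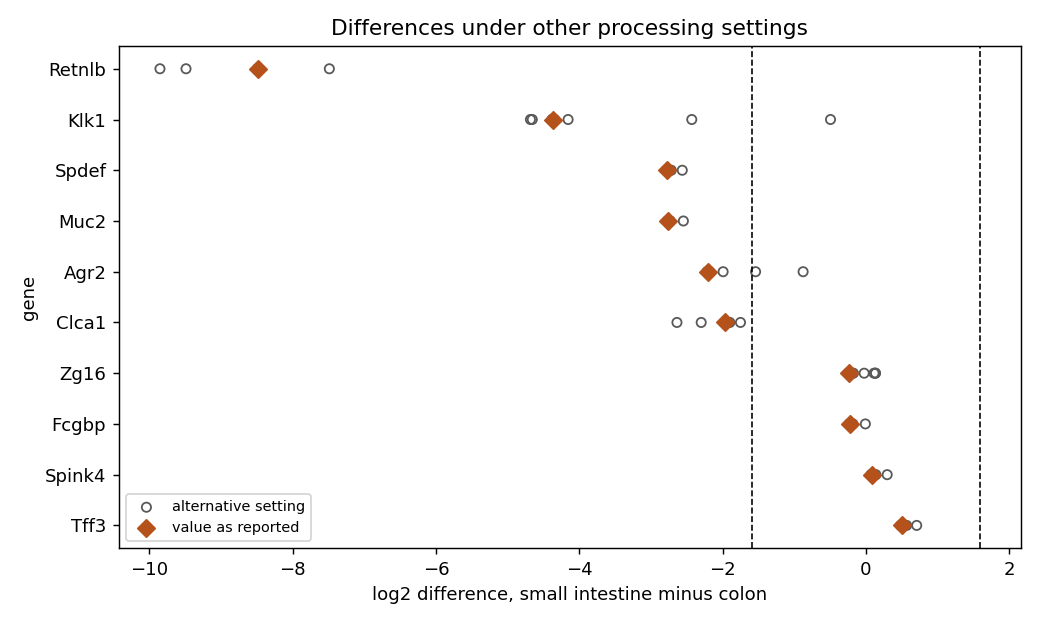
Log2 difference of small intestine minus colon (horizontal axis) of each goblet cell gene (vertical axis), as reported (diamonds) and under other backgrounds, scalings and choices of probe set (open circles), with dashed lines at 3-fold. Muc2, Clca1 and Retnlb stay beyond 3-fold in each, as does Spdef where it has a value. Muc2, Spdef, Retnlb, Fcgbp, Spink4 and Tff3 have 1 probe set each, so the choice of probe set could not move them. Agr2 reaches -0.88 and Klk1 -0.49 with their dimmest probe set above background.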

How the data were processed

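Total RNA, isolated with an RNeasy kit and checked on a Bioanalyzer, was biotin-labelled for Affymetrix mouse arrays, 1 per tissue. The deposited values are log2 expression per probe set, normalized by the authors. The submitters' processing notes name GCRMA, while the methods of the study name RMA, and which applies, its version and the arrays normalized together are not given in the sources used here. GCRMA can widen a difference against a dim value. The methods describe jejunum and distal colon of C57B6 mice, but whether this holds for these arrays is not stated. Per the file headers there is 1 column per sample, and no column was left out.

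Of 45101 probe sets, 932 had several genes and were not used, and 9160 besides controls were unnamed. The members and the lists were chosen with earlier results of these data known. Named are all members, up to 4 genes per list with the largest difference past 3-fold, any gene of the pancreas, Paneth and relative lists, and the 3 genes nearest in difference to Muc2 and Spdef. Foxa2, Creb3l1, Dll1, Pdia5, Hepacam2 and the genes under 3-fold of the fate and folding lists were named after their values were seen. Ehf, Elf3, Agr3, Cdx1 and Cdx2 stand in 2 lists. No test was run, and precision is limited by having 1 array per tissue. The procedure was tested on simulated data with 200 changed genes. These had middle levels in colon, and all probe sets of a changed gene were given the same change. The simulation thus did not cover changed genes near the top of the scale or probe sets that disagree. Alternatives were other backgrounds (4, 6 or none), folds of 2 and 5, quantile normalization, 3 centrings and 3 choices of probe set. Promoter sequences are from RefSeq (GRCm38.p6). Python 3.11.15, numpy 2.4.6, pandas 2.3.3 and matplotlib 3.10.9 were used.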

Additional observations from a re-analysis of the deposited data

How the results depend on the processing

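No paired analysis was possible because each tissue had 1 array. Among 12 other settings, the count of 6 goblet cell genes 3-fold or more higher in colon was again 6 under the other background levels, without a floor, at 2-fold, and after quantile normalization or any of the 3 centrings. It was 5 with the median over probe sets, where Agr2 had -1.54, and 5 of 9 without probe sets marked as shared, where Spdef had none left. That mark pooled the name endings _x_at, _s_at and _a_at. The only Spdef probe set ends in _a_at, and whether its probes bind other genes was not tested. The count was 4 at 5-fold and 4 with the dimmest probe set above background. With the latter, Agr2 had -0.88 and Klk1 -0.49, and the median difference of the 10 genes was -0.69 in place of -2.08. The difference of Klk1 was -2.43 with the median over probe sets, which counts its probe set below background on both arrays as 0. That of Retnlb, bounded by the background, was -9.49 at a level of 4, -7.49 at 6 and -9.85 without a floor. None of the 10 genes changed sides to the small intestine at 3-fold under any of these. Folding, storage and release genes higher in colon numbered 17 at 2-fold and 5 at 5-fold, in place of 9. Mucin glycosylation genes numbered 5 at 5-fold and 6 with the median over probe sets, in place of 10. These last shifts came with a stricter or laxer rule, or with a median in which probe sets below background on both arrays count as 0. What sets the probe sets of a gene apart was not tested. Without exocrine pancreas genes 5.39% of genes were 3-fold higher in colon, in place of 5.49%. Centring moved the small intestine array against the colon array by -0.02 (array medians), 0.02 (18 hybridization spike-in probe sets) or -0.21 (pan-epithelial genes).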

Other observations

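Of 8 measured Paneth cell genes, 6 were 3-fold or more higher in small intestine, among them the matrix protease Mmp7 with 12.45 there and 5.59 in colon, and the lectin Itln1 with 15.13 and 7.37. Lysozyme (Lyz1) had 16.27 in small intestine and 14.07 in colon. The antimicrobial Ang4 was level, with 14.47 in small intestine and 14.36 in colon. The stem cell factor receptor Kit was 5.17-fold higher in colon by 1 of its 2 probe sets, while the other stayed below background on both arrays, and with the median over probe sets, or without probe sets marked as shared, as both of Kit are, 0 Paneth cell genes were 3-fold higher in colon. The defensin Defa39, a member of a family of near-identical genes, was at least 1441-fold higher in small intestine. Of 15 enteroendocrine genes, 6 were 3-fold higher in colon and 1 in small intestine. Those higher in colon held Tph1 of serotonin synthesis (9.58-fold) and the hormone gene Insl5 (at least 45.7-fold), while Gip was at least 91.8-fold higher in small intestine. None of 8 tuft cell genes reached 3-fold in either tissue, and 4 of them exceeded background on either array.

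With only 2 arrays a pattern is a single difference, so likeness between genes is weak as a description. By that measure the genes nearest to Muc2 were Dhx32 (-2.75), Ehf (-2.77) and Ern2 (-2.74). Nearest to Spdef (-2.77) were Ehf, the proglucagon gene Gcg (-2.79) and Dhx32. Within 0.25 of Spdef lay 58 of 9804 genes. None of 8 measured housekeeping genes and 0 of 11 lymphocyte and myeloid genes were 3-fold higher in colon, while 5 of the latter were so in small intestine.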
